A study of Aspergillus nidulans with 2 samples.

Results

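Expression of 6 nitrogen and sulfur assimilation genes was followed in the filamentous fungus Aspergillus nidulans (Emericella nidulans) after exposure to menadione. The genes were chosen by their symbol in the platform annotation of the array: areA, niiA, glnA and car2 of nitrogen metabolism, and sC and met2 of sulfur metabolism. They are 6 of the 2064 genes that the annotation names, and 9 of the 3533 probes belong to them. Menadione is a quinone that takes up and gives off electrons in the cell and so produces superoxide.

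Mycelia of strain FGSC 26 were first grown for 18 h at 37 °C with nitrate and 0.5% yeast extract, then filtered and moved to fresh minimal-nitrate medium of pH 6.5. The stressed cultures received 0.8 mM menadione, given as the sodium bisulfite addition compound, and the controls none. Both were harvested 6 h after the move. The labels give yeast extract for the first medium and do not name it for the second, so nitrate is the nitrogen source they name during the exposure. No genotype beyond the strain name is given, and controls and stressed cultures share the strain, the media and the transfer.

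RNA of the stressed and the untreated mycelia was hybridised together to 2-colour cDNA arrays. Menadione RNA carried Cy5 on the first array, called flip, and Cy3 on the second, called flop. Of the probes, 3049 had a ratio on flip and 2267 on flop, and 2265 were measured on both. The 2 arrays limit the precision of every value, and the labels do not say whether they carried RNA of separate cultures, so that a p-value covers only the spread between these arrays, which may be technical.

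Values are read as log2 ratios of menadione over untreated. This direction is likely but not stated: menadione is the first channel of both samples. Pearson's r between both columns was 0.844 over probes, which are no independent replicates. That value bears only on whether both columns share a direction. It cannot show which direction that is, since it would be the same with both columns inverted. The opposite reading would exchange higher and lower throughout, and a column of red over green on each array would put the treatment in opposite directions. With the flop array's sign turned for that case, the means of niiA, met2 and sC change sign and those of areA, glnA and car2 keep it. Nor is the logarithm's base stated, and as natural logarithms the values would stand for larger folds.

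Nitrate is taken up by a transporter, reduced to nitrite by nitrate reductase and on to ammonium by nitrite reductase, and glutamine synthetase then joins the ammonium to glutamate. AreA, a GATA factor, turns on genes for the use of nitrate and other secondary nitrogen sources when ammonium and glutamine are scarce, and NirA turns on the nitrate genes when nitrate is present. Sulfate is activated by ATP sulfurylase, reduced in further steps to sulfide, and built into cysteine, homocysteine and methionine. Nitrite and sulfite reduction both consume reducing equivalents from NADPH.

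With menadione, 2 of the 6 members measured on both arrays fell and none rose by limma with Benjamini-Hochberg adjustment over all 2265 probes at a threshold of 0.05. The members that fell were car2, a gene of ornithine breakdown, by 2.92-fold, and met2, a gene of methionine synthesis, by 1.94-fold. The nitrate pathway gene niiA, at a mean log2 ratio of -0.56, and the sulfate activation gene sC, at 0.595, did not pass. Neither did areA and the glnA probe that both arrays measured. Of all probes tested, 24.6% passed in either direction and 12.4% were lower, so 2 of 6 is read against that background. The members were chosen with earlier results of these data known, so this count is no test of them as a set. The median of the mean log2 ratio was -0.39 over the 6 member probes and 0.04 over all 2265.

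**Figure D1:**
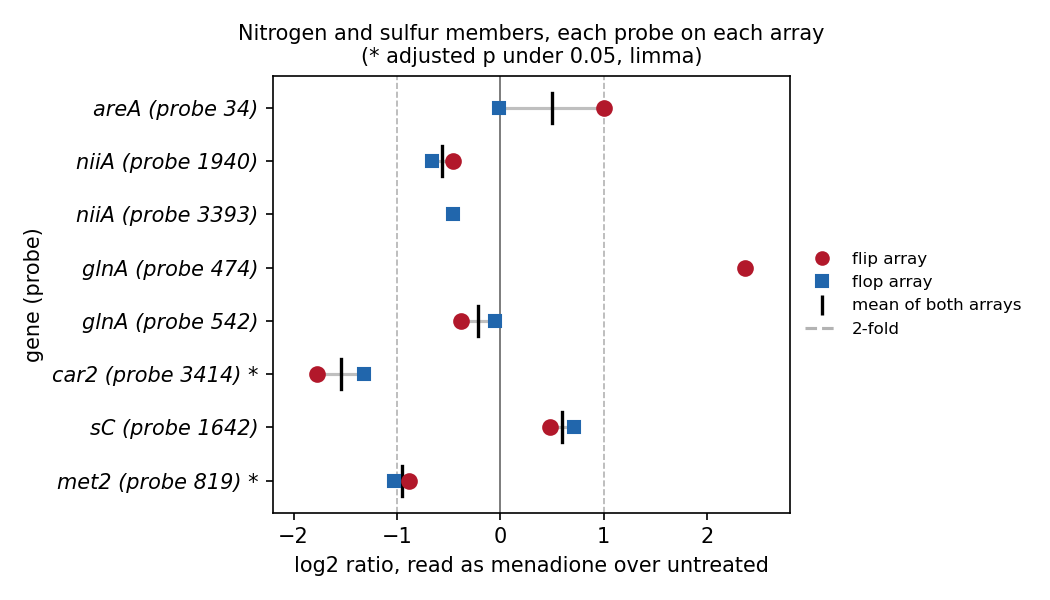
Log2 ratios of each measured member probe on the flip array (circles) and the flop array (squares), on the horizontal axis, with the mean of both arrays as a black bar, dashed lines at 2-fold and an asterisk for probes past the adjusted p of 0.05. In the direction assumed, both car2 values lie beyond 2-fold lower, met2 lies at about 2-fold lower, and the glnA probe measured on the flip array alone stands at 2.37, away from the other glnA probe; turning the flop array's sign moves the means of niiA, met2 and sC across 0.

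The transcription factor gene areA (ANIA_08667, probe 34) had a log2 ratio of 1.00 on the flip array against -0.01 on the flop array. It was thus 2-fold higher on one array and close to no difference on the other. The mean was 0.495 ± 0.71 (SD, n = 2), with a 95% interval from -0.54 to 1.53 (limma adjusted p = 0.313). The gap of 1.01 between the arrays was larger than that of 91.2% of all probes, whose median gap was 0.28. Among the members, areA was the only one whose arrays lay on opposite sides of 0.

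The nitrite reductase gene niiA (ANIA_01007) is represented by 2 probes. Probe 1940 had a log2 ratio of -0.46 on the flip array against -0.66 on the flop array. Probe 3393 was measured on the flop array alone, at -0.46, and is 1 of only 2 probes of the whole table with a value on that array and none on the other. All 3 values were thus below 0 and within 0.20 of each other. Probe 1940 had a mean of -0.56 ± 0.14 (SD, n = 2) and a 95% interval from -1.03 to -0.09, and did not pass after adjustment (limma adjusted p = 0.0850, unadjusted p = 0.0319). On the flop array the probes of niiA differed by 0.20, and 89.7% of the 389 pairs of probes assigned to 1 gene differed by as much or more.

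Close to niiA lie genes that act with it in nitrate use. In the RefSeq gene order niaD, which encodes nitrate reductase, is the direct neighbour of niiA, and crnA, the nitrate transporter gene, lies beyond 1 gene on the other side. The niaD probe was measured on flip alone, at 0.26, against -0.46 for niiA on that array. The crnA probe was empty on both arrays, as was that of nirA, the gene of the nitrate-specific activator. Of these 4 nitrate genes, only niiA could thus be read on both arrays.

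The glutamine synthetase gene glnA (ANIA_04159) had 2 probes that gave unlike values. Probe 542 was at -0.38 on the flip array against -0.05 on the flop array. Probe 474 was at 2.37 on the flip array, a 5.17-fold difference, and had no value on the flop array. Both values of probe 542 were thus slightly below 0, whereas probe 474 was far above it. Probe 542 had a mean of -0.215 ± 0.23 (SD, n = 2) and a 95% interval from -0.74 to 0.31 (limma adjusted p = 0.375).

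On the flip array, where both were measured, the probes of glnA differed by 2.75. Of the 659 pairs of probes assigned to 1 gene on that array, 5.01% differed by as much or more, and the median difference was 0.75. Probe 474 lay at the 99.0th percentile of the flip array. Of the 784 probes with a value there alone, 11 were at or above it, against 21 of the 2265 measured on both arrays. Those 784 probes had a spread close to that of the others on the flip array, with an SD of 0.98 against 0.96. Their median there was higher, at 0.12 against -0.02. The value of probe 474 has no replicate. When probes measured on a single array were added to the fit, which lends such a probe the spread of the others, its limma adjusted p was 0.0591. Which probe stands for glnA was not tested, and a direction for the gene is not given.

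The gene car2 (ANIA_01810) bears the name of the ornithine aminotransferase gene of Saccharomyces cerevisiae, an enzyme that takes the amino group from ornithine when arginine is used as a nitrogen source. Its probe 3414 had a log2 ratio of -1.77 on the flip array against -1.32 on the flop array. It was the only member beyond 2-fold lower on each array, as 9.36% of all probes were. The mean was -1.545 ± 0.32 (SD, n = 2), with a 95% interval from -2.15 to -0.94, and it passed (limma adjusted p = 0.0360). Of all 2265 probes, 144 had a lower mean. In RNA of whole mycelia, less transcript per cell and fewer cells that express the gene cannot be told apart.

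Of the genes beside car2, the direct neighbour ANIA_01809 was at -0.34 and -0.30 on the flip and flop arrays, and ANIA_01812, on the other side beyond 1 gene, at 1.23 and 1.92. Neither was 2-fold lower on an array, and ANIA_01812 was beyond 2-fold higher on both.

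The sulfur gene sC (ANIA_04769) encodes ATP sulfurylase, which activates sulfate at the first step after uptake. Its probe 1642 had a log2 ratio of 0.48 on the flip array against 0.71 on the flop array. Both values were above 0 and below 2-fold. The mean was 0.595 ± 0.16 (SD, n = 2), with a 95% interval from 0.12 to 1.07, and the gene did not pass (limma adjusted p = 0.0800, unadjusted p = 0.0291). It passed once the arrays had been given a common spread (limma adjusted p = 0.0489). A further sC probe, 3465, was empty on both arrays. So was the probe of met16, the direct neighbour of sC, which carries the name of the yeast gene for phosphoadenylylsulfate reductase, a later step of sulfate reduction.

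The gene met2 (ANIA_02229) bears the name of the yeast gene for homoserine O-acetyltransferase, which makes the carbon backbone that accepts sulfide. Its probe 819 had a log2 ratio of -0.88 on the flip array against -1.03 on the flop array. Both values lay close to 2-fold lower, on either side of it. The mean was -0.955 ± 0.11 (SD, n = 2), with a 95% interval from -1.41 to -0.50, and it passed (limma adjusted p = 0.0407). The arrays differed by 0.15 for this probe, the smallest gap among the members.

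The sulfur members thus had ratios on opposite sides of 0 on each array. The 95% interval of sC, from 0.12 to 1.07, does not overlap that of met2, from -1.41 to -0.50. How often the intervals of other probes lie apart was not counted, and sC itself did not pass. The difference between sC and met2 was not tested. Of the nitrogen members measured on both arrays, 3 of 4 had both values below 0, as did 39.4% of all probes. This count takes glnA by probe 542 and leaves out its probe 474, at 2.37 on the flip array alone. Past the threshold was 1 of 4, close to the 24.6% of all probes that passed.

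The calls for car2 and met2 depend on how the spread between the 2 arrays is estimated. Without moderation of the variances, the adjusted p was 0.316 for car2 and 0.286 for met2. None of the 2265 probes passed in that setting, so this loss is not particular to these genes. When probes measured on a single array were added, met2 no longer passed (limma adjusted p = 0.0529) and car2 did (0.0475).

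**Figure D2:**
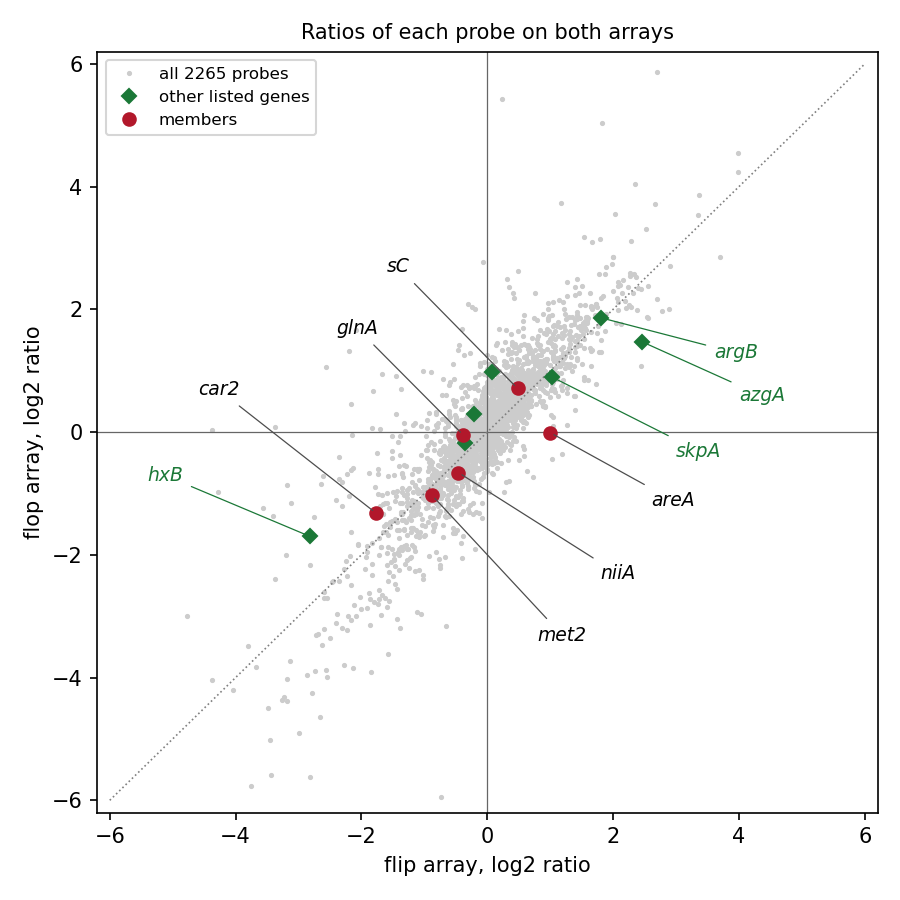
Log2 ratio on the flip array (horizontal) against that on the flop array (vertical) for the 2265 probes measured on both (grey), the 6 members (circles) and the other listed nitrogen and sulfur genes (diamonds, named where they passed). The dotted line marks equal values. The members other than areA lie near that line, car2 farthest toward lower ratios in the direction assumed, and areA lies off it with 1.00 on the flip array against -0.01 on the flop array.

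Other genes of nitrogen and sulfur use were taken from a list of 95 further symbols, of which 13 genes are on the array with 17 probes. Values on both arrays were held by 7 probes of 6 genes, values on the flip array alone by 6 probes, and none by 4. Of the 7 probes, 3 rose and 1 fell by limma, against 12.2% higher and 12.4% lower among all probes. The list was made with earlier results of these data known, so these counts are no test of the pathways. The probes that rose belong to azgA, argB and skpA, and the one that fell to hxB. The median of the mean log2 ratio was 0.53 over the 7 probes.

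Purine use is the best covered of these pathways. The gene azgA encodes a permease for adenine, guanine and hypoxanthine, and its ratio stood at 2.46 on the flip array against 1.47 on the flop array. Both were beyond 2-fold higher, with a mean of 1.965 ± 0.70 (SD, n = 2, limma adjusted p = 0.0438), and 54 of all probes had a higher mean. The gene hxB, whose product activates the molybdenum hydroxylases, was at -2.82 and -1.70. Both were beyond 2-fold lower, with a mean of -2.26 ± 0.79 (SD, n = 2, limma adjusted p = 0.0425), and 63 probes had a lower mean. These ranks rest on the direction assumed. With the sign of flop turned, azgA was at 0.495 and hxB at -0.56, argB probe 35 at -0.03 and skpA at 0.06. None of them passed, but neither did any other of the 2265 probes, so this loss is not particular to these genes.

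The gene hxA encodes xanthine dehydrogenase, 1 of the enzymes that HxB activates. Its probe 3367 was at -0.35 and -0.18 and did not pass (limma adjusted p = 0.244). On the flip array alone, probe 2713 was at 0.75 and probe 2714 at -0.87. The 3 hxA probes thus lay on both sides of 0.

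The gene argB encodes ornithine carbamoyltransferase, which uses ornithine to make arginine, whereas the enzyme named by car2 breaks ornithine down. Its probe 35 was at 1.81 on the flip array against 1.86 on the flop array, a mean of 1.835 ± 0.04 (SD, n = 2, limma adjusted p = 0.0351). Its probe 1889 was at -0.21 and 0.29, a mean of 0.04 ± 0.35 (limma adjusted p = 0.888). The increase thus rests on 1 of the 2 argB probes, which differed by 2.02 on the flip array, a difference that 11.7% of the pairs of that array reached. Ratios of car2 and argB probe 35 lay on opposite sides of 0 on both arrays. On the flip array argB probe 1889 was below 0, as car2 was, so the contrast does not hold for both argB probes. A difference between car2 and argB was not tested.

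The proline permease gene prnB was at 0.08 and 0.98, a mean of 0.53 ± 0.64 (SD, n = 2) that did not pass (limma adjusted p = 0.255). On the flip array alone, amdR, a regulator of amide and omega-amino acid use, was at -0.56. The gene gatA, which encodes a GABA transaminase, was at -0.15 there, and its other probe was empty.

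Among the sulfur genes, skpA was at 1.02 on the flip array against 0.90 on the flop array, a mean of 0.96 ± 0.08 (SD, n = 2, limma adjusted p = 0.0403). It encodes a subunit of SCF ubiquitin ligases and is known in Aspergillus nidulans also as sconC, a negative regulator of sulfur uptake and assimilation. The gene metG encodes cystathionine beta-lyase, which makes homocysteine. It was at -1.24 on the flip array, where 11.9% of the 3049 probes were at least 2-fold lower, and had no value on the flop array. Of the genes that act in methionine synthesis, met2 and metG were both below 0 on the flip array, whose median was 0.01. The metG value has no replicate, and a joint change of these genes was not tested.

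In these genes too the calls rest on few values. With all probes of a gene averaged before the fit, only skpA of the listed genes passed (limma adjusted p = 0.0454), with argB at 0.0506, hxB at 0.0523 and azgA at 0.0540, and with probes measured on a single array added only argB probe 35 (limma adjusted p = 0.0465).

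**Figure D3:**
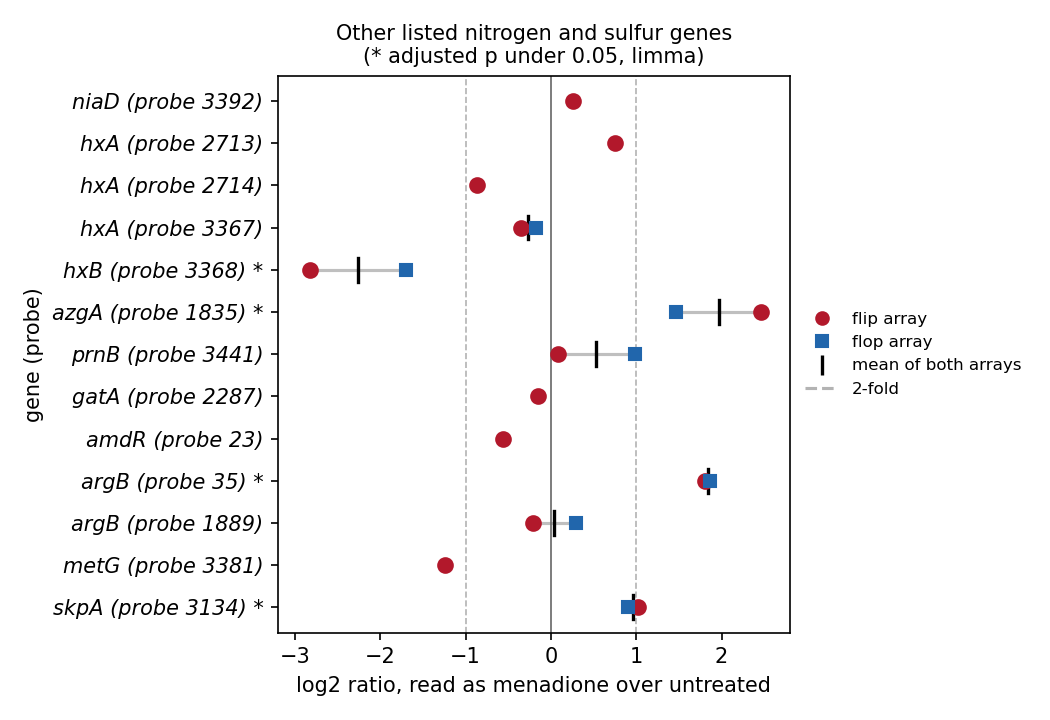
Log2 ratios of the other listed nitrogen and sulfur genes on the flip array (circles) and the flop array (squares), on the horizontal axis, with the mean of both arrays as a black bar, dashed lines at 2-fold and an asterisk for probes past the adjusted p of 0.05. In the direction assumed, hxB is lowest at a mean of -2.26 and azgA highest at 1.965, and the 2 argB probes and the 3 hxA probes do not coincide.

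Probes of the same gene were compared on the flip array, where 434 genes had several probes with a value, against 286 on flop. The plot of these pairs places glnA near the upper end and argB below it. Of the 3 pairs of hxA probes, the widest differed by 1.62, a difference that 19.1% of all pairs reached, and the narrowest by 0.52. The annotation assigns probes to genes, and whether each clone holds the gene it is assigned to was not tested.

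**Figure D4:**
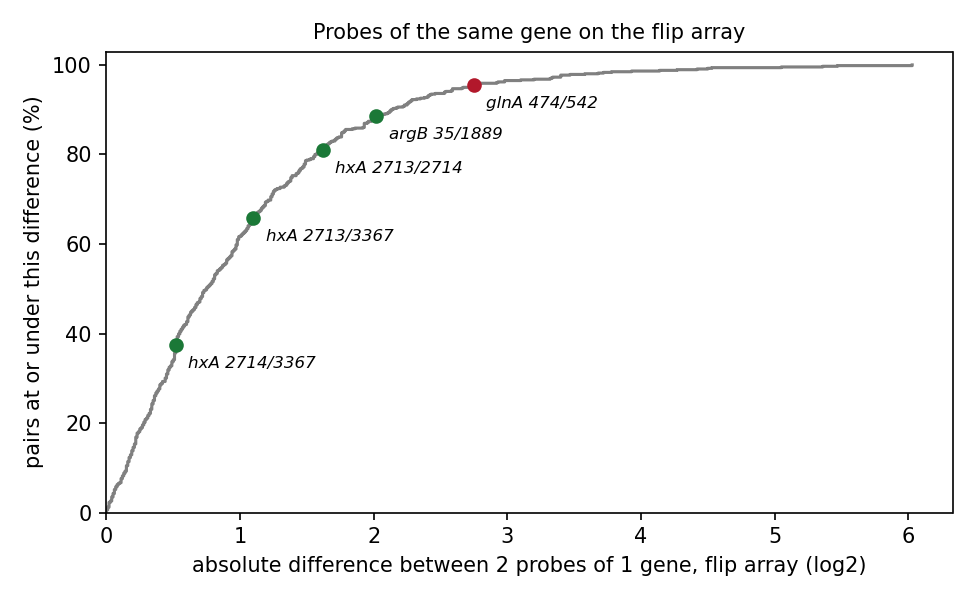
Cumulative percentage of the 659 pairs of probes assigned to 1 gene (vertical) by their absolute difference in log2 ratio on the flip array (horizontal), with pairs of the members and the listed genes as points named by gene and probe numbers. The glnA pair differs by 2.75, which 5.01% of pairs reach, against a median of 0.75.

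Genes with a symbol whose values lay nearest to those of a member were found by the Euclidean distance over the 2 arrays, with no test. A match is that of a single probe. Nearest to car2 was rad18 probe 3410, at -1.71 and -1.35 on the flip and flop arrays (distance 0.067), followed by awh11 at a distance of 0.23. Nearest to met2 were leu2A probe 1972 (0.036) and the calnexin gene clxA, probe 1849 (0.041). The other leu2A probe, 1973, lay at 1.27 and 2.22 and rose (limma adjusted p = 0.0477), so the match does not hold for the gene. Nearest to sC were the aconitase gene acoA (0.022) and cbpA (0.045), and to niiA nudF (0.041) and tim21 (0.080). The glnA probe 542 was nearest to argEF (0.036), a gene of arginine synthesis, and rpnL (0.051). The areA probe had no near match, its nearest genes being the chitin synthase gene chsG (0.43) and veA (0.53). Other probes of rad18, clxA, acoA, tim21, argEF and chsG also had values. On the flip array alone, rad18 probe 3523 was at -0.04, clxA probe 2988 at -0.27 and chsG probe 1242 at -0.19. On the flip and flop arrays, acoA probe 534 was at 0.30 and 0.15 and argEF probe 2067 at 0.16 and -0.02. There chsG probe 983 was at -0.17 and 0.24. The other tim21 probe, at 0.18 and 1.00, lay on the other side of 0 from niiA.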

How the data were processed

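Per the labels' protocols and the design text, arrays were read by the authors on a GenePix 4000B scanner. They calculated ratios with GenePix Pro 3.0 and normalized them block by block with a LOESS-type procedure in SAS for Windows, version 8. The deposited values were taken as log2 ratios, since both signs occur and the largest size is 5.94; their medians are 0.01 (flip) and 0.10 (flop). Scale and direction stay unknown, and no centring beyond the authors' was made. How double-printed spots were combined and why cells are empty is not stated there. Intensities were not used here, so the signal behind each ratio is unknown.

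The 2265 probes with both values were tested against 0 as deposited with limma 3.58.1 in R 4.3.3 (lmFit, eBayes). Each probe had 1 residual degree of freedom and 1.95 prior degrees of freedom. A check on simulated data drew its variances from the fitted prior, so it cannot show whether that prior suits these arrays. Errors are SDs over 2 arrays. All 2779 probes with a gene matched the RefSeq table of assembly ASM1142v1 by gene ID, and 754 are unnamed here. Listed genes were found by symbol alone, since the tables hold no product descriptions. Named were every member probe, every listed gene with a value (there were 10) and the 2 nearest genes of each member. Neighbouring genes were looked up by position after values had been seen. Members and lists were chosen with earlier results of these data known. Alternatives covered centring, scaling, sign, moderation, averaging by gene, probes kept, thresholds, each array alone and natural logarithms.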

Additional observations from a re-analysis of the deposited data

How the results depend on the processing

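Of 42 tested repeats of the 6 member means, 34 kept direction and side of the threshold. Members that had not passed count as kept if they fell short again in the same direction, also in settings where no probe passed. The call of met2 was lost with the flop array's sign turned, without moderation and with probes of single arrays added. That of car2 was lost with the sign turned and without moderation. After turning the sign of flop, the means of met2, sC and niiA became 0.075, -0.115 and 0.10. In that setting, where no probe passed, car2 was at -0.225. The call that sC gained with a common spread is given with the members. On single arrays, where no test is possible and areA changes sign, areA ranged from -0.01 to 1.00, glnA from -0.38 to -0.05, met2 from -1.03 to -0.88, sC from 0.48 to 0.71, niiA from -0.66 to -0.46 and car2 from -1.77 to -1.32.

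By limma, 557 of all probes passed. This became 878 with a common spread, 277 genes with probes averaged, 305 with probes of at least 1 array and 951 at an adjusted p of 0.10. At 0.01, 0 passed (1035 at an unadjusted p under 0.05), without moderation 0 (390 unadjusted) and with the flop array's sign turned 0 (2 unadjusted). All unadjusted counts in this paragraph are at a p under 0.05, also those given beside the adjusted threshold of 0.01. Of the member probes, 2 became 4 at 0.10, 1 with probes of at least 1 array, and 0 at 0.01 (4 unadjusted), without moderation (1 unadjusted) and with the sign turned (0 unadjusted). Of the listed probes, 4 became 1 with probes averaged, 1 with probes of at least 1 array, and 0 at 0.01 (4 unadjusted), without moderation (2 unadjusted) and with the sign turned (0 unadjusted). Beyond 2-fold on each array were 412 probes, a count that became 785 at 1.5-fold, 157 at 3-fold, 663 as natural logarithms, 4 with the sign turned, and 525 to 671 on 1 array alone. The cause of these changes was not tested. No paired analysis was possible because there is 1 group. Signal over background is unknown, so no limit from it can be given.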
